A study of Drosophila melanogaster with 3 samples.

Results

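The piRNA pathway genes described here are a set of 10 named Drosophila melanogaster genes, piwi, aub, AGO3, zuc, armi, spn-E, krimp, qin, tej and mael, picked by symbol. Of these, 9 have a row under that symbol among the 13990 genes listed in both deposited expression tables, and qin has none. RNA was sequenced in 1 library each of 3 groups. Act>Aac11-RNAi larvae carry a UAS hairpin against Aac11, the fly ortholog of mammalian API5, under the ubiquitous driver Actin5C-Gal4. The library labelled enGFP+Yki+Aac11-IR (the Yki library here) names Yki, the growth-promoting coactivator Yorkie, beside an Aac11 hairpin. The enGFP part of its label is not spelled out, and the sources used here give neither its driver nor its number of animals. Act>control larvae carry the driver with no hairpin in the label. For each Act genotype, 10 to 20 wandering larvae of the last instar were sorted by GFP and pooled, with no sex stated. The labels give 25 degrees Celsius and 12 hours of light for all 3 groups. With no replicates, no test, standard deviation or p-value can be given, and every difference below describes these libraries alone.

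piRNAs are small RNAs that guide PIWI-family Argonaute proteins to transposons and other repeated sequences, mainly in the ovary and testis. Piwi itself acts in the nucleus, where it directs transcriptional silencing in germ cells and in the somatic cells of the gonad. Aub and AGO3 cut RNA in the cytoplasm of germ cells and feed each other with new piRNAs in the ping-pong cycle, which takes place in nuage, granules around the nucleus that hold many Tudor-domain proteins. In the testis the pathway also silences the repeated Stellate genes.

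Levels are FPKM, fragment counts scaled by transcript length and library size, as deposited. The steps between low FPKM values gave depths of about 31200000 fragments for the RNAi library, 17700000 for the Yki library and 6000000 for the control, so control values are the least precise. Aac11 itself measured 78.1 FPKM in the RNAi library, against 150 FPKM in the control. The Yki library, normalized in a table of its own, held 117 FPKM of it. The source label reads wing disc cells, whereas the extraction describes whole larvae. The 14 wing disc genes checked were all present in the 3 libraries, while the 8 fat body genes summed to 9425 FPKM in the RNAi library, 28.8 FPKM in the separately normalized Yki library and 13448 FPKM in the control. Lsp2 gave most of both Act sums, at 5243 FPKM under RNAi and 8453 FPKM in the control. The fat body list was mixed, with 5 genes lower under RNAi than in the control and apolpp and Lsp1gamma higher. Yp1, at 0.511 FPKM under RNAi and 0.361 FPKM in the control, rested on 22 and 3 fragments, too few to show a difference. The 22 male germ line genes summed to 1233 FPKM in the RNAi library, 63.9 FPKM in the Yki library and 4481 FPKM in the control. Most of the Yki sum came from CycB3 (44.7 FPKM) and mia (10.2 FPKM), and 18 of the 22 genes were under 1 FPKM there.

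In the Act larvae the 9 genes were expressed at low to moderate levels and did not move as a block. Piwi RNA was higher in the RNAi library, aub, AGO3, krimp and mael RNA were lower, and armi differed little. For zuc, spn-E and tej no difference was detectable at the depth of the control. All 9 passed the filter, a mean of at least 1 FPKM over the Act libraries. With 1 FPKM added to each value, mael alone, 1 of the 9 genes, was 2-fold or more below the control under RNAi, and 0 were 2-fold or more above it. Among all 11330 genes that passed the filter, 17.0% were at least 2-fold lower and 3.70% at least 2-fold higher. The share of members that were lower was 11.1%. How the members stand against other genes depends on which genes are compared: with the comparison limited to genes that the Yki library also held at 1 FPKM or more, 1 of 7 members (14.3%) and 3.22% of all 7566 such genes were lower. The median log2 ratio was -0.11 over the 9 genes and -0.032 over all 11330.

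**Figure D1:**
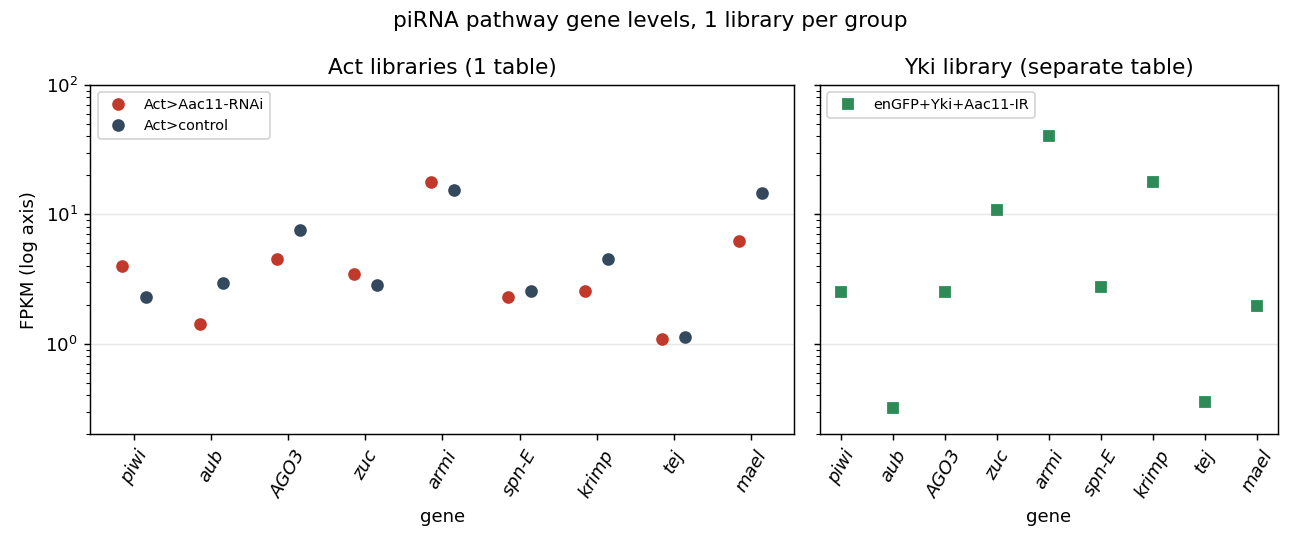
FPKM on a log axis of the 9 piRNA pathway genes, with 1 point per library; the left panel holds the Act>Aac11-RNAi and Act>control libraries and the right panel the separately normalized Yki library. In the Act libraries armi and mael are the highest, with mael at 6.22 FPKM under RNAi and 14.6 FPKM in the control, whereas in the Yki library armi, krimp and zuc stand above the other 6 genes.

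The 3 PIWI-family genes went different ways. The gene piwi (FBgn0004872, chromosome 2L, 10982205 to 10987420, minus strand) and the others are placed here in dm6 coordinates. Its level was 3.98 FPKM in the RNAi library, against 2.29 FPKM in the control, and its log2 ratio, with 1 FPKM added, was 0.60. These levels rest on about 344 fragments in the RNAi library and 38 in the control. Their 95% counting interval, on the log2 scale and with nothing added, ran from 0.32 to 1.33. This interval, like those below, covers counting error only and says nothing of the spread between animals.

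The neighbouring gene aub (FBgn0000146, chromosome 2L, 10997819 to 11001476, minus strand) starts 10398 bases beyond piwi, with 1 annotated gene between them. It measured 1.42 FPKM in the RNAi library, against 2.95 FPKM in the control, a log2 ratio of -0.71, and the counting interval ran from -1.55 to -0.52. AGO3 (FBgn0250816) spans 23554593 to 23689640 on chromosome 3L, plus strand. It was the most abundant of the 3 PIWI-family genes in both Act libraries, at 4.49 FPKM in the RNAi library and 7.55 FPKM in the control. Its log2 ratio was -0.64, with a counting interval from -1.05 to -0.43. Thus piwi stood above the control value, and both partners of the ping-pong cycle stood below it.

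Ratios between genes of 1 library do not depend on how libraries were scaled. The pairs of members here and below were chosen after their values were seen, and their 95% intervals do not allow for that choice. The ratio of piwi to aub FPKM was 2.81 in the RNAi library, 7.84 in the Yki library and 0.776 in the control. The RNAi ratio was 3.62 times the control ratio, with an exact conditional 95% interval on fragments from 2.18 to 6.02. The ratio of piwi to AGO3 was 0.886 in the RNAi library and 0.303 in the control, 2.93 times as high with an interval from 1.95 to 4.49. AGO3 over aub was 3.17 in the RNAi library and 2.56 in the control, and that interval, from 0.803 to 1.87 times, included equality. Of the summed FPKM of the 3 genes, piwi made up 40.3% in the RNAi library, 46.7% in the Yki library and 17.9% in the control.

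Of the factors that make piRNAs outside the ping-pong cycle, armi showed a small difference and zuc no detectable one. Zuc (FBgn0261266, chromosome 2L, 11988735 to 11989882, minus strand), the endonuclease on the mitochondrial surface that cuts piRNA precursors, measured 3.45 FPKM in the RNAi library and 2.86 FPKM in the control. Its log2 ratio was 0.20. With 102 fragments in the RNAi library and 16 in the control, its counting interval ran from -0.46 to 1.16 and included 0, so no difference was detectable at this depth. Armi (FBgn0041164, chromosome 3L, 3461317 to 3466314, plus strand) is an RNA helicase that works with Zuc. It had the highest FPKM of the members in every library, but overlapped mael in the control by counting interval. Its level was 17.9 FPKM in the RNAi library and 15.6 FPKM in the control, a log2 ratio of 0.19 with a counting interval from 0.033 to 0.38, and it turned to -0.051 when the median of genes of like transcript length was subtracted. The annotation places another gene, CG46463, over 99.6% of the exonic bases of armi on the same strand, and no row of the tables was matched to it, so the armi value may hold RNA of either.

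Among the nuage proteins, krimp was lower in the RNAi library and spn-E and tej were not distinguishable from the control. Krimp (FBgn0034098, chromosome 2R, 16238103 to 16240722, minus strand), a Tudor protein that brings Aub and AGO3 together, measured 2.54 FPKM in the RNAi library, against 4.56 FPKM in the control. The log2 ratio was -0.65, with a counting interval from -1.27 to -0.42. Spn-E (FBgn0003483, chromosome 3R, 15837419 to 15844415, plus strand), a helicase with a Tudor domain, stood at 2.31 FPKM in the RNAi library and 2.57 FPKM in the control, and its interval ran from -0.53 to 0.25. Tej (FBgn0033921, chromosome 2R, 14300103 to 14302353, minus strand), a Tudor protein needed to gather other factors in nuage, had 1.09 FPKM in the RNAi library and 1.13 FPKM in the control. Only 12 control fragments lay behind tej, and its interval ran from -0.98 to 0.96. The log2 ratios of spn-E, -0.11, and tej, -0.027, turned positive with upper quartiles set equal, at 0.057 for spn-E and 0.099 for tej. With the median of genes of like transcript length subtracted, spn-E was at -0.35. Over the settings that kept each gene, the main one included, spn-E was negative in 8 of 9 and tej in 4 of 8.

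Qin, a Tudor protein that keeps the ping-pong cycle between Aub and AGO3, is listed in the tables only as 2 former gene models, CG14303 and CG14306, which the RefSeq table joins in the gene at 18591027 to 18650137 on chromosome 3R, plus strand. CG14303 measured 1.57 FPKM in the RNAi library, 1.11 FPKM in the Yki library and 1.33 FPKM in the control. CG14306 measured 0.726 FPKM in the RNAi library and 0.367 FPKM in the Yki library, and was listed at 0 in the control. These values were not added up and do not enter the counts of members.

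Mael, an HMG-box protein found in nuage and in the nucleus that takes part in Piwi-directed silencing, had the lowest ratio of the 9 genes. The gene (FBgn0016034) spans 22721203 to 22726234 on chromosome 3L, plus strand. Its level was 6.22 FPKM in the RNAi library, against 14.6 FPKM in the control, and the log2 ratio was -1.11 with a counting interval from -1.52 to -0.93. It remained below 0 under all 9 alternative settings, but the 2-fold call was lost with upper quartiles set equal, at -0.91, with library sums set equal, at -0.999, and with a pseudocount of 5 FPKM, at -0.80. The antisense gene CG14451, at 0.924 FPKM in the RNAi library and 4.03 FPKM in the control, overlaps 11.4% of the exonic bases of mael. No source used here states a strand setting, so reads of the 2 genes cannot be told apart in that stretch.

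**Figure D2:**
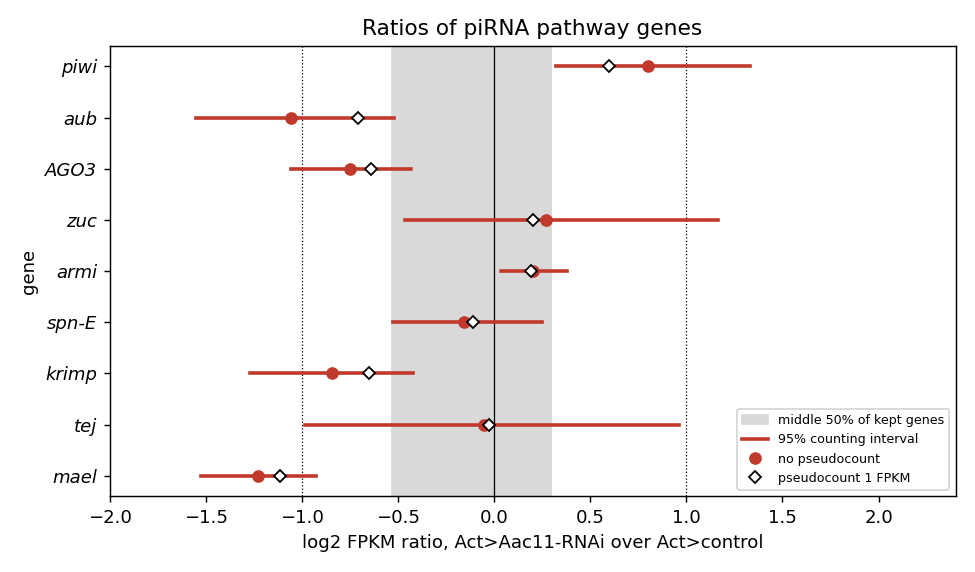
Log2 FPKM ratios of Act>Aac11-RNAi over Act>control for the 9 genes. Filled points have no pseudocount and carry 95% counting intervals (lines), and open diamonds have 1 FPKM added. Dotted lines mark 2-fold. The grey band holds the middle 50% of the 11236 genes that passed the filter and were above 0 in both Act libraries. It was drawn with nothing added, so it is the reference for the filled points only. The intervals of aub, AGO3, krimp and mael lie below 0 and those of piwi and armi above it, and no interval lies wholly beyond 2-fold.

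Counting intervals left out 0 for 6 of the 9 genes, or 66.7%, and included it for 3. The same held for 64.9% of the 10729 kept genes whose shortest annotated transcript is over 400 bases long, so this share among the members is near that of all genes. Intervals lay below 0 for 4 members and above 0 for 2, against 35.7% and 29.2% of all those genes. Aub, AGO3, krimp and mael had negative log2 ratios under every setting that kept them, while piwi and zuc had positive ones. Overlaps with genes on the opposite strand, all of which had higher FPKM, covered 6.22% of the exonic bases of piwi (SCAR), 2.62% of aub (CG16833) and 5.84% of zuc (CG34163). SCAR measured 46.9 FPKM in the RNAi library and 42.2 FPKM in the control. CG16833 had 28.8 FPKM under RNAi and 54.6 FPKM in the control, and CG34163 had 57.5 FPKM and 47.7 FPKM. With no strand setting stated, part of the piwi, aub and zuc values, and so of their ratios and order, may come from these neighbours. How large that part is was not tested. No gene with a row in the tables overlapped exons of AGO3, armi, spn-E, krimp or tej.

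In these larvae the RNA of the male germ line was lower under RNAi as well. All 22 male germ line genes passed the filter, and 19 of them were lower by 2-fold or more under RNAi, with 0 higher, with a median log2 ratio of -1.80 and a range from -2.27 to -0.18. The ratios of mael, aub, krimp and AGO3, between -1.11 and -0.64, lay inside that range and above its median. The upper end of the range rests on CycB3 (-0.18) and mia (-0.27), at 44.7 and 10.2 FPKM in the Yki library. Next came aly, at -0.89, and of these members only mael lay below that value. In the Yki library 7 of the 22 genes were listed at 0. RNAs linked to male dosage compensation were checked as well, and 2 of 3 were past 2-fold in the lower direction. The noncoding RNA roX1 measured 37.0 FPKM in the RNAi library, 179 FPKM in the Yki library and 161 FPKM in the control, with a log2 ratio of -2.09. The second such RNA, roX2, had 17.2 FPKM in the RNAi library, 114 FPKM in the Yki library and 104 FPKM in the control, with a log2 ratio of -2.53. The complex subunit gene msl-2 had 11.4 FPKM in the RNAi library, 19.6 FPKM in the Yki library and 18.2 FPKM in the control, with a log2 ratio of -0.63. The sex of the pooled larvae is not stated. Germ cell genes had 11 of 14 members kept. Of these, 2 were at least 2-fold lower, namely bgcn, a partner of the differentiation factor bam, at 2.62 FPKM in the RNAi library and 8.32 FPKM in the control, and the translation regulator orb, at 17.3 FPKM in the RNAi library and 60.6 FPKM in the control. These 2 make up 18.2% of the kept germ cell genes, near the 17.0% of all kept genes. The median of the 11 kept genes was -0.42, with 6 negative values (vas, nos, bam, bgcn, orb and pgc) and 5 positive ones (ovo, pum, Rbp9, gcl and stau). In the Yki library ovo, pum, gcl and stau measured 39.8, 27.9, 11.5 and 28.5 FPKM, and Rbp9 0.154 FPKM. The negative genes ran there from 0.313 FPKM (nos) to 3.51 FPKM (pgc). The list was not limited to genes scarce in that library, so its median does not speak for those alone. Gonad soma genes, several of which are also expressed in other tissues, had 8 of 9 kept members with positive log2 ratios and a median of 0.30. The wing disc genes went the same way, with 12 of 14 positive and a median of 0.32. Of all 11330 kept genes, 52.6% had negative log2 ratios. The gonad soma gene tj, which encodes a transcription factor, measured 2.41 FPKM in the RNAi library, against 1.54 FPKM in the control, and was listed at 0 in the Yki library. In whole-animal RNA, fewer cells of a type and less RNA per cell cannot be told apart, and the part of these tissues and of male RNA in the values of the piRNA genes was not tested.

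**Figure D3:**
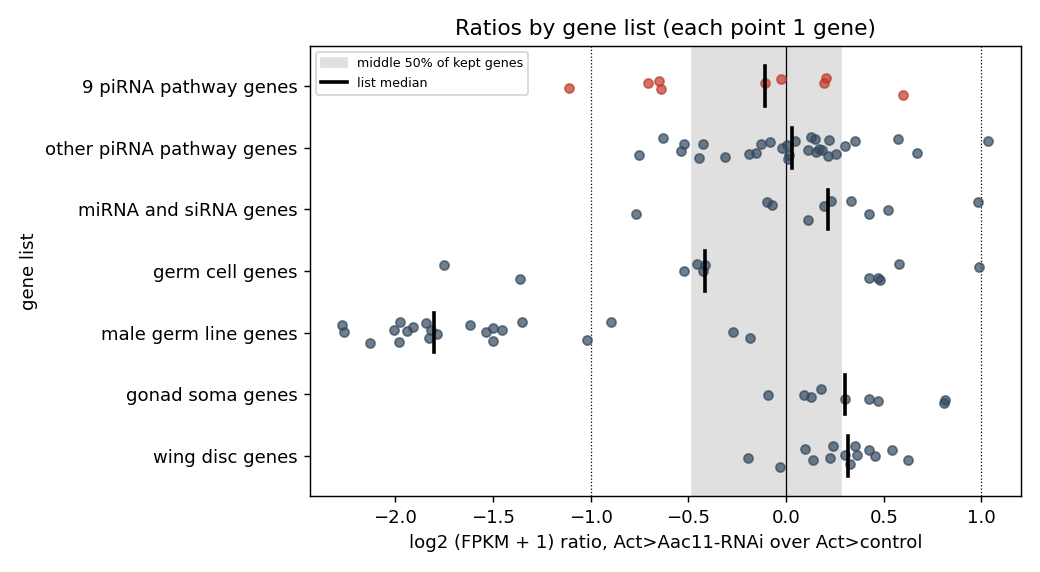
Log2 (FPKM + 1) ratios of Act>Aac11-RNAi over Act>control by gene list, each point a gene with a mean of at least 1 FPKM over both Act libraries, with list medians as black bars and the middle 50% of all such genes in grey; vas is in the germ cell list and in that of other piRNA pathway genes, and hh in those of gonad soma and wing disc. The 9 piRNA pathway genes spread from -1.11 to 0.60 around a median of -0.11, above the male germ line median of -1.80.

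The rest of the piRNA pathway, listed by role, did not share a direction. Of 36 further pathway genes 35 were found and 30 were kept. Of the 30, 1 was higher by 2-fold or more under RNAi and 0 were lower by as much, set against the same 3.70% and 17.0% of all kept genes. Their median log2 ratio was 0.030, with 12 negative and 18 positive values. These genes were not limited to those scarce in the Yki library, so their median does not speak for scarce genes alone. Hsp83 and Hel25E, for example, measured 1093 and 397 FPKM there, with log2 ratios of 0.11 and 0.15. The gene past 2-fold was nxf3 (CG32135 in the tables), the export factor for germ line piRNA cluster transcripts, at 4.47 FPKM in the RNAi library, against 1.67 FPKM in the control. Its log2 ratio of 1.03 came to 0.51 with a pseudocount of 5 FPKM and 0.67 with the length correction, which ended the call.

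By role, 9 genes of nuclear silencing had a median of 0.17, from panx (CG9754), a Piwi effector, at 16.8 FPKM in the RNAi library and 19.3 FPKM in the control, to sov (CG14438), a zinc finger protein of heterochromatin, at 9.73 FPKM in the RNAi library and 6.21 FPKM in the control. The 5 kept genes of cluster transcription and export had a median of -0.44. Of these, del (-0.44), cuff (-0.52) and boot (-0.63) were negative, and nxf3 and Hel25E were positive. Of this group rhi, the chromatin protein that marks germ line piRNA clusters, and its partner moon were under the filter, rhi at 0.558 FPKM in the RNAi library and 0.362 FPKM in the control and moon at 0.208 FPKM in the RNAi library and 0.270 FPKM in the control. The 7 kept nuage and Tudor genes had a median of 0.048. They ran from the helicase gene vas, at 1.98 FPKM in the RNAi library and 3.0 FPKM in the control, to tud, at 72.4 FPKM in the RNAi library and 45.2 FPKM in the control. The 9 genes of processing, loading and methylation had a median of 0.011 and ran from Hen1, which methylates the ends of piRNAs and siRNAs, at 7.94 FPKM in the RNAi library and 14.1 FPKM in the control, to the exonuclease gene nbr (CG9247), at 37.7 FPKM in the RNAi library and 33.0 FPKM in the control. In the Yki library 6 of the 35 genes were under 1 FPKM.

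The miRNA and siRNA genes were set beside the piRNA genes as the small RNA machinery of all tissues. Of the 10, 0 were past 2-fold in either direction, the median log2 ratio was 0.21 and 7 were positive. The extremes were AGO1, the miRNA Argonaute, at 52.8 FPKM in the RNAi library and 26.3 FPKM in the control, with a log2 ratio of 0.98 that passed 2-fold under 4 of the 9 alternatives, and loqs, a partner of the Dicers, at 63.4 FPKM in the RNAi library and 109 FPKM in the control. Their median level was 52.1 FPKM in the RNAi library, 45.5 FPKM in the Yki library and 36.9 FPKM in the control, and that of the 9 piRNA genes was 3.45 FPKM in the RNAi library, 2.53 FPKM in the Yki library and 2.95 FPKM in the control. No piRNA member except armi reached the median rank of all genes in any Act library. Armi stood at percentile 58.3 in the RNAi library and 50.3 in the control, followed by mael at percentile 36.4 in the RNAi library and 48.8 in the control.

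The order of the members differed between the Act libraries. In the control armi (15.6 FPKM) and mael (14.6 FPKM) had overlapping counting intervals, and AGO3 and then krimp came next. From krimp down through aub, zuc, spn-E, piwi and tej each gene's interval overlapped that of the next. In the RNAi library mael, AGO3 and piwi followed armi, each neighbour from AGO3 down to spn-E overlapped the next, and aub and tej were lowest. Armi over mael was 2.88 in the RNAi library and 1.07 in the control, 2.70 times as high with an exact interval from 2.12 to 3.43. Between the Act libraries the median log2 ratio of kept genes rose with transcript length. It went from -0.37 in the shortest of 10 length groups to 0.37 in the longest. The median was 0.24 in the group of armi and -0.035 in that of mael, and the exact interval does not cover this trend. Krimp over mael, at 0.409 in the RNAi library and 0.312 in the control, had an interval from 0.906 to 1.87 times that included equality.

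All 9 genes were detected in the Yki library, at levels that ranged from 0.318 to 40.4 FPKM. Armi measured 40.4 FPKM, krimp 17.9 FPKM and zuc 10.8 FPKM, and their counting intervals did not overlap. Spn-E (2.75 FPKM), AGO3 (2.53 FPKM), piwi (2.50 FPKM) and mael (1.97 FPKM) followed with overlapping intervals between neighbours. Tej (0.354 FPKM) and aub (0.318 FPKM) were lowest, on 11 and 15 fragments. Both remained above the level of 3 fragments, 0.0973 FPKM for tej and 0.0650 FPKM for aub. Within this library armi reached percentile 79.8, krimp 64.2, zuc 57.1, piwi 48.6 and aub 39.3, although 3460 genes were listed at 0, which raises the rank of any gene above 0.

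The make-up of piRNA pathway RNA therefore differed between the libraries. Armi made up 41.3% of the summed FPKM of the 9 genes in the RNAi library, 50.9% in the Yki library and 28.8% in the control. The armi part may hold RNA of CG46463, and in the control its counting interval overlapped that of mael. Mael made up 14.3% in the RNAi library, 2.47% in the Yki library and 27.0% in the control. Krimp made up 5.85% in the RNAi library, 22.5% in the Yki library and 8.43% in the control. As a scale-free comparison, krimp over mael was 9.08 in the Yki library and 0.312 in the control, 29.1 times as high with an exact interval from 19.0 to 44.4. Between these 2 libraries the labelled genotype and the content of fat body and male germ line RNA differ, and their parts cannot be told apart.

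**Figure D4:**
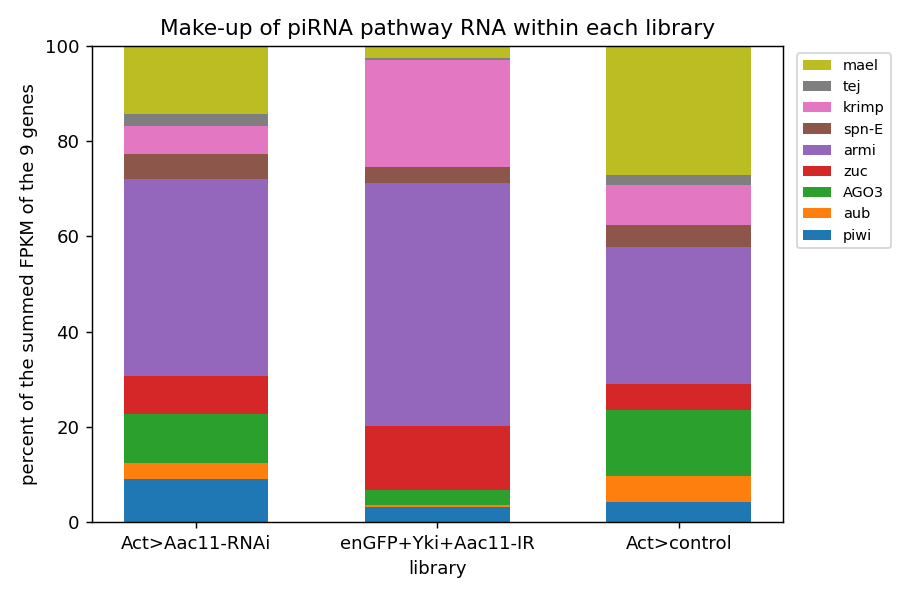
Stacked bars of the percent that each of the 9 genes contributes to their summed FPKM within the Act>Aac11-RNAi, enGFP+Yki+Aac11-IR and Act>control libraries. Mael takes 14.3% in the RNAi library, 2.47% in the Yki library and 27.0% in the control. Armi, which may hold RNA of CG46463, is the largest part in each, close to mael in the control.

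Stellate genes, the testis targets of the pathway, were near the detection limit. Of 14 names 12 were found, and all 12 were listed at 0 in the Yki library and in the control. In the RNAi library 10 were listed at 0, and Ste12DOR (0.104 FPKM) and Ste:CG33237 (0.0803 FPKM) were under the level that 3 fragments give. These genes are near-identical copies, so their reads may have been split or set aside in the authors' counting.

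Genes most like a member in level were found by the Euclidean distance of log2 (FPKM + 1) over the 3 libraries, among 11329 candidates. The nearest gene to piwi was CG2278, at 3.69 FPKM in the RNAi library, 2.59 FPKM in the Yki library and 2.12 FPKM in the control (distance 0.121), followed by Nep1 and CG42402. The nearest to aub was Ssl2 (distance 0.140), at 1.23 FPKM in the RNAi library, 0.392 FPKM in the Yki library and 2.93 FPKM in the control, followed by stops and CG13358. The nearest to AGO3 were CG3253 (0.168), CG10426 and CR31044, and the nearest to mael were CG32252 (0.367), r-cup and CG18171. None of these 12 genes is on a list used here, and with only 3 libraries such likeness is a description of levels.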

How the data were processed

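The authors deposited FPKM values for 13990 genes in 2 tables, 1 for both Act libraries and 1 for the Yki library. Per the submitters' processing notes, CASAVA 1.4, TopHat2 2.0.12, Cuffdiff 2.2.1 and the build dm6 were used, with no roles stated. The annotation, the strand setting and how libraries were scaled: not given in the sources used here. Ribosomal RNA was depleted from 4 µg of total RNA before TruSeq RNA v2 library construction, per the labels' protocols. No ratio of a gene was formed between the tables, which were normalized separately. All 3 sample columns were used.

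Symbols, older names and positions came from the RefSeq gene table (Release 6) and the Ensembl 115 annotation in dm6 coordinates, which matched 96.1% of the genes. Log2 ratios divide RNAi by control FPKM after 1 was added to each. A gene was kept if its Act libraries averaged 1 FPKM or more, and was called at 2-fold. Depth was the value at which low FPKM of 4198 genes with 1 transcript over 1000 nt, less 200 nt, came to whole fragments. In the RNAi, Yki and control libraries 80.6%, 88.0% and 79.8% of low values lay no further than 0.2 from a whole number, against 40% for evenly spread values. Fragments of a gene used its shortest transcript. Their 95% intervals (exact binomial for ratios, exact Poisson for levels, exact conditional for ratios of ratios) cover counting error only. The depth step and the calls were tested on simulated data. Python 3.11.15, pandas 2.3.3 and scipy 1.17.1 were used.

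The members and lists were chosen with earlier results of these data known. Named genes were all members, genes past 2-fold or at the extremes of the pathway lists, and the 3 genes nearest in level to piwi, aub, AGO3 and mael. Marker lists are mostly given by counts. Tj, rhi, moon and Dcr-2 were chosen after their values were seen, as were the pairs of members set in ratios. No sequence is shown, since none was used here.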

Additional observations from a re-analysis of the deposited data

How the results depend on the processing

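Each ratio was recomputed under 9 alternatives. The count of members at least 2-fold lower, 1 as reported, was 2 with a pseudocount of 0.1 FPKM (18.3% of all kept genes) and 0 with 5 FPKM (13.1%), with upper quartiles set equal (15.4%) or with sums set to 1000000 (16.1%). Limited to what the Yki library held at 1 FPKM or more, it was 1 of 7 members, against 3.22% of all genes. The count of members at least 2-fold higher was 0 throughout. The members' median log2 ratio, -0.11, was -0.15 and -0.051 with pseudocounts of 0.1 and 5 FPKM, -0.072 with the median of genes of at least 10 FPKM set to 0, -0.012 with sums set equal, -0.64 over the 3 members of at least 5 FPKM, -0.35 with the length correction, and turned to 0.057 with upper quartiles set equal, which moved the median of all kept genes to 0.18. The median of the other pathway genes, 0.030, was 0.25 with upper quartiles, 0.16 with sums and 0.082 with the median of genes of at least 10 FPKM set to 0, 0.013 without the filter, 0.048 at 5 FPKM or after leaving out what the Yki library held at below 1 FPKM, and turned to -0.026 with the length correction. Its count of higher genes, 1, was 0 with a pseudocount of 5 FPKM, the filter at 5 FPKM or the length correction, and its count of lower genes was 1 with 0.1 FPKM. Signs turned for spn-E (0.057), tej (0.099) and CG9754 (0.030) with upper quartiles, for tej with sums (0.048), with the median set to 0 (0.0011) and with the length correction (0.0077), and for armi with the length correction (-0.051). The members' median percentile in the Yki library, 48.7, was 31.8 among genes above 0, since 3460 genes at 0 leave the ranking. Other causes were not tested. No paired analysis was possible because each group has 1 library, and no library could be left out for the same reason. Depth limits zuc and tej most, with 16 and 12 control fragments.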

Other observations

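Dcr-2, the Dicer that makes siRNAs, was among the most abundant RNAs of the Act libraries, at 3082 FPKM in the RNAi library and 2146 FPKM in the control, and measured 343 FPKM in the separately normalized Yki library. It stood at percentile 99.8 in the RNAi library, 98.0 in the Yki library and 99.5 in the control, while the miRNA Dicer gene Dcr-1 measured 7.68 FPKM in the RNAi library and 6.39 FPKM in the control. The other genes of the siRNA arm were lower than Dcr-2, with AGO2 at 119 FPKM in the RNAi library and 94.0 FPKM in the control, and r2d2 at 51.5 FPKM in the RNAi library and 47.6 FPKM in the control. No label used here names a Dcr-2 construct in any genotype.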
